A study of Mus musculus with 7 samples.

Results

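The comparison described here sets the 2 libraries of cochlear supporting cells treated with trichostatin A (TSA) against the 3 treated with GSK-343, which are 5 of the 7 libraries of the series. They were chosen by their treatment label and because their gene tables share a read layout: gene length minus effective length had a median of 208.21 to 212.69 bases in these 5 libraries and of 49 bases in the others, which received the solvent DMSO and were left out of the contrast. Every group came from cochleae of mice at postnatal day 1, kept for 48 h as whole organs on filter membranes in L15 medium that carried N2, B27, penicillin G, HEPES, EGF at 5 ng/ml and FGF at 2.5 ng/ml. TSA was given at 200 nM and GSK-343 at 10 µM. The organs were digested with trypsin, cells positive for GFP were sorted, and their RNA was made into libraries with a kit meant for very small inputs. The labels name neither the mouse strain nor the reporter that carries GFP, and they leave unsaid if replicates came from different cultures, animals or pools. The p-values therefore reflect only how these libraries vary, which may be technical.

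Both compounds act on enzymes that write or remove marks on histones. TSA blocks zinc-dependent histone deacetylases, so acetyl groups, which loosen chromatin and recruit bromodomain proteins, accumulate on histones and on other proteins. GSK-343 blocks EZH2, the catalytic subunit of Polycomb repressive complex 2, which places methyl groups on lysine 27 of histone H3 and keeps developmental genes silent. Supporting cells surround and insulate the hair cells of the organ of Corti, are coupled by gap junctions, secrete parts of the tectorial membrane and depend on Notch signalling to keep their identity. The question is which transcripts differ between cells under a deacetylase inhibitor and cells under an EZH2 inhibitor. A difference between them does not say which compound moved the gene.

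Expected counts summed to 2724381 and 2963228 in the TSA libraries and 3398893 to 4248336 in the GSK-343 libraries. The share of counts from mitochondrial ribosomal RNA was 10.4% and 18.1% with TSA, higher in replicate 2, and between 3.47% and 8.60% with GSK-343. The first principal component of the 5 libraries (57.9% of the variance) separated the compounds, and the second (21.1%) set GSK-343 replicate 1 apart from the rest. Supporting cell markers were present in all 5 libraries: Sox2, a transcription factor of the prosensory domain, stood at 114 and 105 CPM with TSA and 157, 186 and 166 CPM with GSK-343. Summed over 45 supporting cell markers the level was 21805 and 17468 CPM with TSA and 39911 to 44872 CPM with GSK-343. Markers of other cells were lower. For 61 hair cell genes the sum was 6406 and 2239 CPM with TSA and 1900 to 3845 CPM with GSK-343. For 17 genes of Reissner's membrane, roof and sulcus epithelium it was 2559 and 2200 CPM with TSA and 2969 to 3687 CPM with GSK-343. For 26 genes of endothelium and blood it was 12.1 to 31.7 CPM over all 5 libraries. In bulk RNA, fewer cells of a type and less RNA per cell cannot be told apart.

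The test covered 13235 genes, and at an adjusted p under 0.05 it called 788 higher with TSA (5.95%) and 699 lower (5.28%), together 11.2%. Levels below are TMM-normalised CPM (counts scaled to a common library size) in each library, and each log2 change is the log2 fold change ± SE of TSA over GSK-343 from edgeR's quasi-likelihood test, with a Benjamini-Hochberg adjusted p over all genes tested. All 1487 called genes differed by at least 2-fold, and the median log2 fold change over all genes tested was −0.02. An unadjusted p under 0.05 was reached by 3938 genes. The number of calls rested on the TSA replicates: without TSA replicate 1 it was 218, and without TSA replicate 2 it was 1, Stmn2, beside 1937 genes with an unadjusted p under 0.05. With the DMSO libraries added to the model, which lets the spread be estimated over 7 libraries, 1425 genes were called, and 159 without TSA replicate 2. The levels of nearly all called genes did not overlap between the compounds, as was the case for 48.2% of all genes tested, so leaving out a library could hardly turn their sign. Their median absolute log2 fold change was 2.16, and it was 2.40 without TSA replicate 1 and 1.86 without TSA replicate 2. Without GSK-343 replicate 1, the library that stood apart, 2499 genes were called. Each adjusted p below is therefore a statement about these 5 libraries together, and its value without TSA replicate 2 is given by paragraph.

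**Figure D1:**
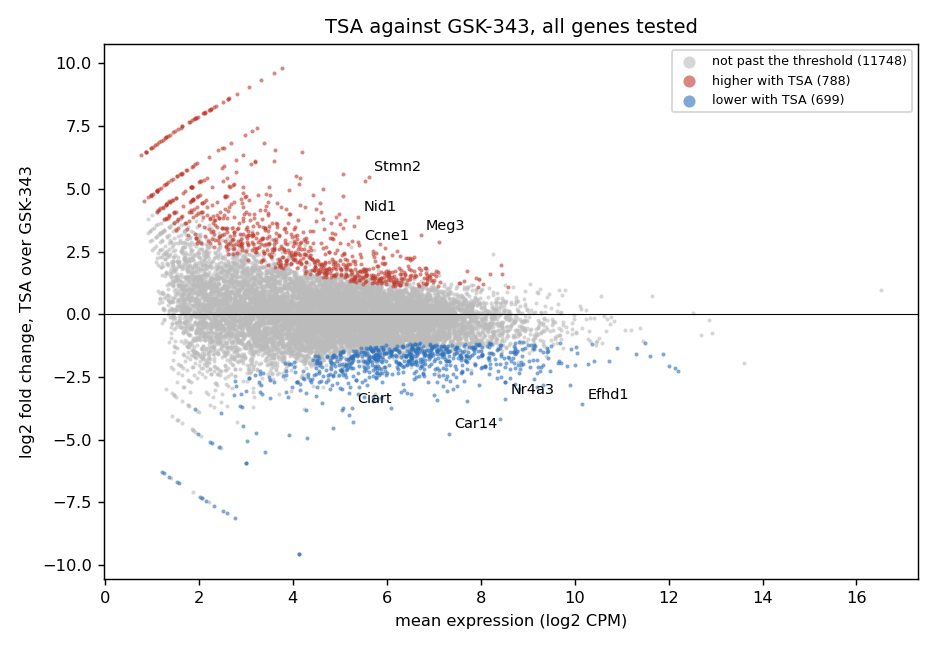
Each point is 1 of the 13235 genes tested, with its mean expression (log2 CPM over the 5 libraries) on the horizontal axis and its log2 fold change of TSA over GSK-343 on the vertical axis. The 788 genes higher with TSA are red and the 699 lower are blue; the oblique lines of points at the left are genes with few or no counts in one group, and 8 of the genes named in the text are labelled.

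The genes with the smallest adjusted p among well expressed ones that were higher with TSA included a neurite protein, an extracellular matrix protein and imprinted RNAs. These 10 genes, and the 10 lower ones below, were also chosen for levels that do not overlap between the compounds. Their lack of overlap is therefore not a result. Stmn2, a stathmin-family protein that binds tubulin in growing neurites (chromosome 3), stood at 123 and 112 CPM with TSA and 2.14, 3.57 and 2.06 CPM with GSK-343 (log2 change 5.48 ± 0.43, adjusted p = 0.000713). Nid1, the nidogen that links laminin to type IV collagen in basement membranes, stood at 82.8 and 104 CPM with TSA and 7.34, 4.12 and 7.48 CPM with GSK-343 (log2 change 3.88 ± 0.42, adjusted p = 0.00551). Rian, a long non-coding RNA expressed from the maternal copy of the Dlk1-Meg3 imprinted region, stood at 95 and 126 CPM with TSA and 1.22, 5.77 and 1.29 CPM with GSK-343 (log2 change 5.30 ± 0.60, adjusted p = 0.00551). In each of these 3 genes both TSA libraries lay more than 10-fold above the highest GSK-343 library. Meg3, the long non-coding RNA that gives this region its name, stood at 241 and 207 CPM with TSA and 29.3, 35.4 and 10.8 CPM with GSK-343 (log2 change 3.15 ± 0.45, adjusted p = 0.00658). Aass, the first enzyme of lysine breakdown in mitochondria, stood at 74.2 and 80 CPM with TSA and 2.14, 9.89 and 4.9 CPM with GSK-343 (log2 change 3.76 ± 0.55, adjusted p = 0.00689). The lowest and the highest GSK-343 library lay several-fold from each other in both genes. Ccne1, the cyclin that drives entry into S phase, stood at 80.2 and 90.7 CPM with TSA and 11.6, 11.3 and 15 CPM with GSK-343 (log2 change 2.76 ± 0.37, adjusted p = 0.0057). Ndrg4, a cytoplasmic protein abundant in brain and heart, stood at 117 and 120 CPM with TSA and 15.9, 19.5 and 15.7 CPM with GSK-343 (log2 change 2.80 ± 0.35, adjusted p = 0.00551). Replicates of these last genes were close to each other in both groups. Pls3, an actin-bundling plastin, stood at 53.7 and 92.7 CPM with TSA and 4.89, 9.07 and 5.93 CPM with GSK-343 (log2 change 3.45 ± 0.46, adjusted p = 0.0057). Lrrc8c, a subunit of volume-regulated anion channels, stood at 108 and 141 CPM with TSA and 20.5, 18.4 and 21.1 CPM with GSK-343 (log2 change 2.64 ± 0.34, adjusted p = 0.00555), and Lrrn1, a membrane protein with leucine-rich repeats, at 139 and 156 CPM with TSA and 29.3, 18.1 and 29.1 CPM with GSK-343 (log2 change 2.53 ± 0.35, adjusted p = 0.00587). Lack of overlap was a condition of the choice for these 3 genes too. With TSA replicate 2 left out Stmn2 had an adjusted p of 0.0308, and the other 9 genes missed the threshold (adjusted p = 0.125 to 0.143); without TSA replicate 1 all 10 passed it.

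The genes with the smallest adjusted p among those lower with TSA included an early response nuclear receptor, a mitochondrial calcium sensor and genes of epithelial surfaces. Nr4a3, an orphan nuclear receptor induced early after many stimuli, stood at 62.7 and 46.7 CPM with TSA and 672, 397 and 650 CPM with GSK-343 (log2 change −3.39 ± 0.41, adjusted p = 0.00551). Efhd1, a calcium-binding protein of mitochondria, stood at 195 and 106 CPM with TSA and 1202, 2047 and 2130 CPM with GSK-343 (log2 change −3.58 ± 0.45, adjusted p = 0.00551). Car14, a carbonic anhydrase of the cell surface, stood at 15.3 and 3.67 CPM with TSA and 148, 249 and 380 CPM with GSK-343 (log2 change −4.76 ± 0.66, adjusted p = 0.0057). The TSA libraries themselves differed several-fold for Car14. Ciart, a repressor of the circadian clock, stood at 4.8 and 4 CPM with TSA and 53.8, 44 and 80.7 CPM with GSK-343 (log2 change −3.75 ± 0.50, adjusted p = 0.0057). Cldn7, a claudin of epithelial tight junctions, stood at 97.2 and 89.7 CPM with TSA and 599, 504 and 842 CPM with GSK-343 (log2 change −2.79 ± 0.38, adjusted p = 0.0057). P2ry2, a receptor for extracellular ATP and UTP, stood at 12.5 and 5.33 CPM with TSA and 78, 88.2 and 104 CPM with GSK-343 (log2 change −3.33 ± 0.47, adjusted p = 0.00628). The TSA values of Ciart and Cldn7 were close together. Tmem189, an enzyme that makes plasmalogen lipids, stood at 170 and 116 CPM with TSA and 879, 732 and 921 CPM with GSK-343 (log2 change −2.56 ± 0.36, adjusted p = 0.00601). Tmem252, a transmembrane protein, stood at 139 and 99.7 CPM with TSA and 633, 1019 and 1051 CPM with GSK-343 (log2 change −2.92 ± 0.40, adjusted p = 0.0057). Pcdhgc4, a member of the gamma protocadherin cluster, stood at 25.3 and 14 CPM with TSA and 247, 187 and 197 CPM with GSK-343 (log2 change −3.42 ± 0.42, adjusted p = 0.00551). Rpl36, a protein of the large ribosomal subunit, completed the 10 at 84.7 and 89 CPM with TSA and 537, 547 and 974 CPM with GSK-343 (log2 change −2.98 ± 0.41, adjusted p = 0.0057). By the rule of choice, no TSA library of these genes reached the lowest GSK-343 library. Pcdhgc4 shares exons with its cluster, Tmem189 overlaps a read-through transcript and Rpl36 has near-identical copies, so reads of these 3 may be split between genes. When TSA replicate 2 was dropped the 10 genes had adjusted p-values of 0.13 to 0.161, and without TSA replicate 1 all 10 passed.

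**Figure D2:**
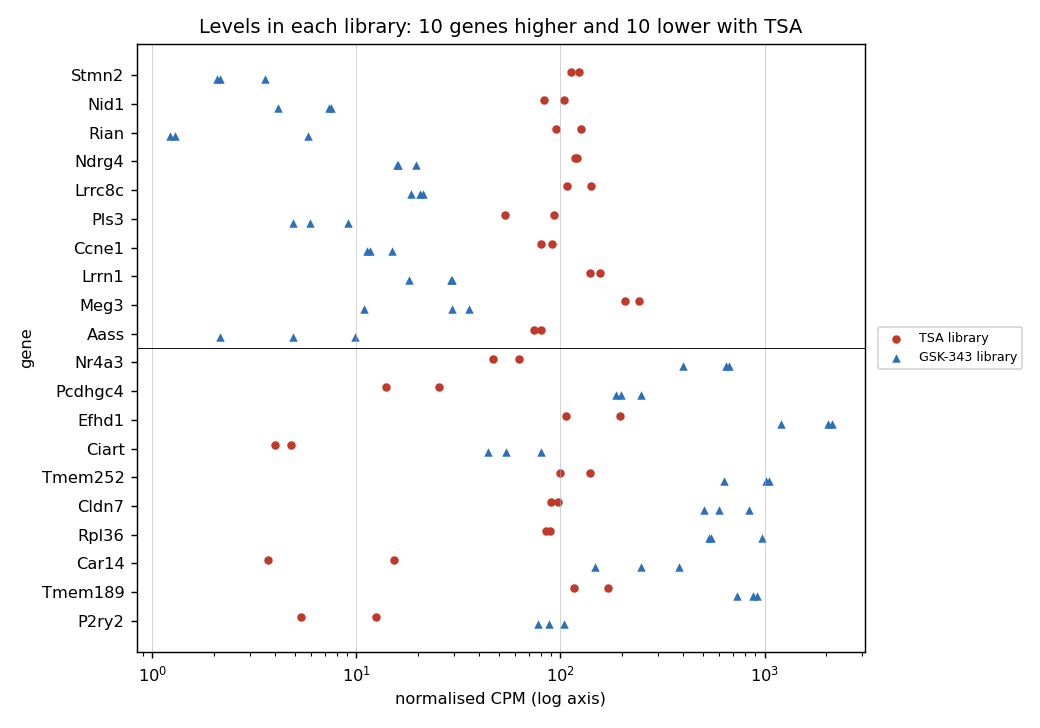
Normalised CPM (log axis) of the 10 well expressed genes with the smallest adjusted p in each direction, with 1 red circle per TSA library and 1 blue triangle per GSK-343 library. In every row the circles and triangles do not overlap, because the genes were chosen for that. The 3 GSK-343 libraries of Aass, from 2.14 to 9.89 CPM, spread more than its TSA libraries.

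The start regions of 4 of these genes are shown, with adjusted p-values among the smallest in each direction and an entry in the promoter table. Ndrg4 and Pcdhgc4 had the same adjusted p and are not shown. Every CpG, the dinucleotide that DNA methylation and CpG-island promoters are about, is in capitals. Each region runs from 250 bases before to 50 bases after the start in RefSeq on GRCm38.p6, on the plus strand. Nid1 (chr13:13437352-13437651) holds 20 CpG and has a GC content of 64.7%. Rian (chr12:109603695-109603994) holds 0 CpG with a GC content of 49.3%. Both were higher with TSA. Nr4a3 (chr4:48045055-48045354) holds 26 and Efhd1 (chr1:87264103-87264402) holds 24, and both were lower with TSA.
Nid1: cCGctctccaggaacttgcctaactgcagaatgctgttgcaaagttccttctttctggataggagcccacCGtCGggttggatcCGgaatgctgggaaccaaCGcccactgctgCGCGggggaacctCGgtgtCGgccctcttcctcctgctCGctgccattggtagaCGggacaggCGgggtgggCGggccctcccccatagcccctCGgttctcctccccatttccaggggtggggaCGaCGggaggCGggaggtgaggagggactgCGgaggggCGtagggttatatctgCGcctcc
Rian: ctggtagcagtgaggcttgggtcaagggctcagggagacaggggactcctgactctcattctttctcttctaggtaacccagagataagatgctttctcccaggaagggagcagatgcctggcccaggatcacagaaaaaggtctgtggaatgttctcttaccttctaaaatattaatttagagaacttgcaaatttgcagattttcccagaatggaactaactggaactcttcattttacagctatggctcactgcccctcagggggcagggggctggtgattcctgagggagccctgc
Nr4a3: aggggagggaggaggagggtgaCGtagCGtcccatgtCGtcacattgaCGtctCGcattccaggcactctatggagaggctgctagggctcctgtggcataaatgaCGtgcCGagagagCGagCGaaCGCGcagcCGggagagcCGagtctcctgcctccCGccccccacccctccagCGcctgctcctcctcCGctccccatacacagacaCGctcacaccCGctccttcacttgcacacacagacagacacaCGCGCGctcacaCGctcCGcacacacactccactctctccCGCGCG
Efhd1: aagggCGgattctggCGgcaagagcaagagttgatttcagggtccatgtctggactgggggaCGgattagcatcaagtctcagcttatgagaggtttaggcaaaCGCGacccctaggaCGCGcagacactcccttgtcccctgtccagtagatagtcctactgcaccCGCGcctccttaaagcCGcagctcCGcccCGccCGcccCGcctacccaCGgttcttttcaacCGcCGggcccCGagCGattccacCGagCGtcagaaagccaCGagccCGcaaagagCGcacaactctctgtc

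Over all called genes CpG content did not separate the directions. The median number of CpG in these 300-base windows was 19 in the 580 genes higher with TSA that have an entry, 21 in the 536 lower and 21 in the 9892 tested, against 7 over all 27025 promoters of the table. Called genes differed more in length and composition. The 788 genes higher with TSA spanned a median of 47.0 kb of genome and the 699 lower 11.2 kb, against 24.1 kb over all genes tested. A span over 100 kb was found in 28.3% of the higher genes (223) and in 5.87% of the lower ones (41), against 14.6% of those tested. The median GC content of their transcripts was 46.8% and 54.5%, against 49.4%. With the genes in 5 equal bins of GC content, 224 were higher and 22 lower with TSA in the lowest bin, and 87 were higher and 306 lower in the highest. Across 13213 genes, which are not independent replicates, the fold change had a Spearman rho of −0.38 with GC content. With a trend on GC content and length removed in each library, 594 genes were higher and 813 lower with TSA, and the share of higher genes was 42.2% in place of 53%. Of the 1487 called genes 1013 then passed with the same sign.

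**Figure D3:**
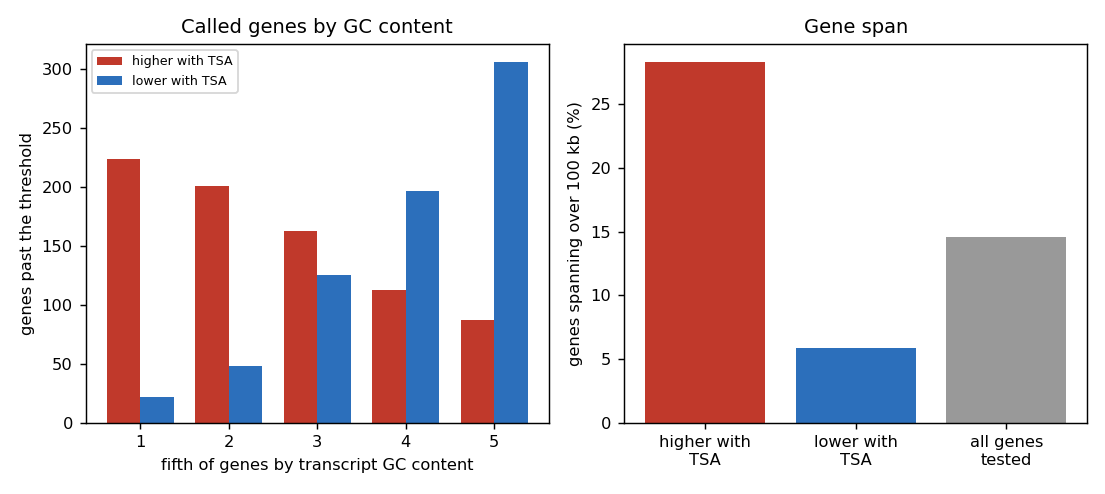
Left, the number of genes past the threshold (vertical axis) in each of 5 equal bins of the tested genes by transcript GC content, lowest first, with genes higher with TSA in red and lower in blue. Right, the percentage of genes whose genomic span exceeds 100 kb among those higher (28.3%), lower (5.87%) and all tested (14.6%).

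More genes were detected with TSA. Thinned to the same 2394570 counts of nuclear genes, the TSA libraries held 19130 and 18246 genes above 0 and the GSK-343 libraries 15427 to 16562. For nuclear protein-coding genes thinned to 2317831 counts the values were 14982 and 14571 with TSA, against 13121 to 13588 with GSK-343. The groups did not overlap in either count. Among the called genes 50 had no count in any GSK-343 library and 14 had none in any TSA library.

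Ion channel genes that passed the test were nearly all higher with TSA. Of 26 potassium channel genes tested out of 38 listed, 12 were higher and 1 lower with TSA, with a median log2 fold change of 2.11. Of 27 sodium and calcium channel genes tested out of 34, 12 were higher and 0 lower, with a median of 1.88. These shares compare with 5.95% and 5.28% over all genes. A gene with few counts entered the test only through the group where it is high, so the counts and medians cover the tested members alone. Without the low-count filter 3 potassium and 6 sodium and calcium channel genes were higher, and with limma 3 and 2. Kcnt1, a sodium-activated potassium channel, stood at 35.2 and 23.3 CPM with TSA and 0, 0 and 0 CPM with GSK-343, with no count in the latter, and was at least 34.9-fold higher with TSA (floor of 3 counts per library, counting error only; adjusted p = 0.00551). Kcnn3, a calcium-activated channel of small conductance, stood at 13.7 and 45 CPM with TSA and 0, 0.275 and 0.516 CPM with GSK-343, with 178 counts over the TSA and 3 over the GSK-343 libraries, a ratio of 104 (95% counting interval 35.2 to 511; adjusted p = 0.0057). Both were close to undetected with GSK-343. Kcnq3, a subunit of the M-current channel, stood at 38 and 35 CPM with TSA and 3.06, 10.2 and 4.9 CPM with GSK-343 (log2 change 2.58 ± 0.56, adjusted p = 0.0198). Ryr1, a calcium release channel of internal stores best known from skeletal muscle, stood at 42.2 and 37 CPM with TSA and 0.611, 1.1 and 0.773 CPM with GSK-343 (log2 change 5.51 ± 0.58, adjusted p = 0.00551). Cacna1b, the pore of N-type calcium channels, stood at 37.1 and 42.7 CPM with TSA and 6.11, 4.4 and 5.67 CPM with GSK-343 (log2 change 2.88 ± 0.47, adjusted p = 0.00859), and Cacna1a, the pore of P/Q-type channels, at 41.6 and 26 CPM with TSA and 0.611, 1.65 and 3.87 CPM with GSK-343 (log2 change 4.0 ± 0.69, adjusted p = 0.0105). In each of these genes both TSA libraries lay above every GSK-343 library. Scn9a, a voltage-gated sodium channel, had 30 counts over the TSA and 0 over the GSK-343 libraries and was at least 5.86-fold higher (adjusted p = 0.0212). After removal of the GC and length trend, 9 potassium channel genes were higher and 2 lower and 10 of the sodium and calcium channel genes were higher and 1 lower; Kcnq3 then missed the threshold (adjusted p = 0.0895). In the fit lacking TSA replicate 2 none of the genes named here passed (adjusted p = 0.125 to 0.2; Scn9a was too low to test), and without TSA replicate 1 Kcnq3, Cacna1a and Scn9a did not (adjusted p = 0.0724 to 0.125).

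Genes of the synapse that passed the test were mostly higher with TSA. Of the tested members 23.8% of the synapse list and 21.4% of the receptor list passed, against 11.2% over all genes tested. Of 42 genes of synapses and vesicle release tested, 9 were higher and 1 lower, with a median log2 fold change of 0.81, and of 14 neurotransmitter receptor genes tested out of 40, 3 were higher and 0 lower, with a median of 1.56. Snap25, a SNARE protein of vesicle fusion, stood at 84.4 and 73.3 CPM with TSA and 13.8, 4.67 and 12.4 CPM with GSK-343 (log2 change 2.94 ± 0.48, adjusted p = 0.00841). Sv2a, a glycoprotein of synaptic vesicles, stood at 85.4 and 44.3 CPM with TSA and 8.56, 7.42 and 11.1 CPM with GSK-343 (log2 change 2.84 ± 0.45, adjusted p = 0.00779). Its relative Sv2c went the other way, at 25.9 and 10 CPM with TSA and 207, 81 and 80.2 CPM with GSK-343 (log2 change −2.77 ± 0.58, adjusted p = 0.0181). No library of one compound overlapped those of the other in these 3 genes. Gabrb1, a GABA receptor subunit, stood at 8.95 and 16 CPM with TSA and 0.306, 1.65 and 0 CPM with GSK-343 (log2 change 4.19 ± 1.02, adjusted p = 0.0284), and Gria2, an AMPA receptor subunit, at 7.99 and 20.7 CPM with TSA and 2.75, 0.549 and 0.773 CPM with GSK-343 (log2 change 3.39 ± 0.84, adjusted p = 0.0302). Both receptor genes were low with GSK-343, where 3 counts correspond to 0.773 to 0.917 CPM. The median of the receptor list was −0.22 over the genes with at least 50 counts in 2 libraries, none of which passed. With the GC and length trend removed, the receptor list had 1 gene higher and 1 lower, and Gabrb1 and Gria2 missed the threshold (adjusted p = 0.0756 to 0.0782). Without TSA replicate 2 (adjusted p = 0.125 to 0.44) and without TSA replicate 1 (adjusted p = 0.0561 to 0.102) none of the 5 passed; Gria2 did not without GSK-343 replicate 2 or 3 either (0.0543 and 0.0612).

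Among microtubule genes, the 7 that were higher with TSA encode binding proteins and motors, and 5 of the 6 that were lower encode tubulins. They are out of 41 tested, with a median log2 fold change of 0.03. The share called was 31.7%, against 11.2% over all genes tested. Mapt, the axonal protein tau, stood at 30.1 and 45.3 CPM with TSA and 1.53, 3.57 and 3.09 CPM with GSK-343 (log2 change 3.76 ± 0.56, adjusted p = 0.00723). Map2, its dendritic relative, stood at 220 and 352 CPM with TSA and 60.2, 21.4 and 34.5 CPM with GSK-343 (log2 change 2.89 ± 0.44, adjusted p = 0.00749). Both TSA libraries lay well above the GSK-343 libraries. The beta-tubulin Tubb2b stood at 108 and 91.3 CPM with TSA and 404, 534 and 500 CPM with GSK-343 (log2 change −2.26 ± 0.35, adjusted p = 0.00754), lower with TSA in both libraries. The other tubulins past the threshold, Tuba1a, Tuba1b, Tubb2a and Tubb4b, were lower too and were named after their values were seen. Tubulin genes are near-identical in sequence, so their reads may be shared. Tubb3, the beta-tubulin of neurons, stood at 1.92 and 4.33 CPM with TSA and at 1.22, 3.85 and 4.64 CPM with GSK-343, with overlapping groups. With TSA replicate 2 left out Mapt, Map2 and Tubb2b missed the threshold (adjusted p = 0.162 for each) and without TSA replicate 1 they passed it.

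Some of the synapse and microtubule genes above, such as Snap25 and Mapt, are also on the neuronal list, so that list is given beside them. Of 35 neuronal genes tested out of 45, 14 were higher and 1 lower with TSA, with a median log2 fold change of 1.78. The background was 5.95% higher and 5.28% lower. Members with few counts could enter the test through the TSA libraries alone, so these values cover only the tested members. Above 0 were 44 and 42 of the 45 with TSA and 35, 35 and 38 with GSK-343. Without the low-count filter 9 were higher and 1 lower (median 1.89). With at least 50 counts in 2 libraries the numbers were also 9 and 1 (median 1.70). The summed level of the neuronal list overlapped between the compounds, at 2351 and 1771 CPM with TSA and 1470, 1825 and 1948 CPM with GSK-343. Stmn2, Snap25 and Mapt, described above, are among the 14. Elavl3 and Prph, chosen after their values were seen, lay at low levels and higher in the TSA libraries. The neuronal marker Tubb3, given above, overlapped between the groups. Elavl3, an RNA-binding protein of neurons, stood at 2.88 and 6.33 CPM with TSA and at 0 to 0.516 CPM with GSK-343, and passed as higher on 28 against 2 counts (ratio 24.65, 95% counting interval 6.22 to 214). Prph, a peripheral neurofilament, stood at 0.639 and 2.0 CPM with TSA and at 0 in all GSK-343 libraries. In TSA replicates 1 and 2, 3 counts correspond to 0.959 and 0.9999 CPM, so Prph rests on few counts. The part of neurons in the sorted cells in these results was not tested.

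Adhesion genes were mixed. The share called was 32.1% for the cadherin family and 18.6% for axon guidance and adhesion, against 11.2% over all genes tested. Among 28 tested genes of the cadherin family 7 were higher with TSA and 2 lower, with a median log2 fold change of 0.92, and of 43 genes of axon guidance and adhesion 6 were higher and 2 lower, with a median of 0.36. Pcdh9, a protocadherin, stood at 40 and 58.3 CPM with TSA and 6.42, 10.4 and 6.96 CPM with GSK-343 (log2 change 2.62 ± 0.46, adjusted p = 0.0107). Clstn2, a calsyntenin of postsynaptic membranes, stood at 36.8 and 73.3 CPM with TSA and 1.83, 8.24 and 1.8 CPM with GSK-343 (log2 change 3.78 ± 0.67, adjusted p = 0.0116), while its relative Clstn1 stood at 687 and 355 CPM with TSA and 1743, 1686 and 2292 CPM with GSK-343 (log2 change −1.87 ± 0.39, adjusted p = 0.0174). The 2 calsyntenins thus lay on opposite sides. Ncam1, a neural cell adhesion molecule, stood at 190 and 190 CPM with TSA and 54.7, 60.7 and 77.6 CPM with GSK-343 (log2 change 1.56 ± 0.32, adjusted p = 0.0172). Epha4, a receptor for ephrins, stood at 75.8 and 95.7 CPM with TSA and 25.1, 23.4 and 24.2 CPM with GSK-343 (log2 change 1.82 ± 0.35, adjusted p = 0.014). Cntnap2, an adhesion protein of the neurexin family, stood at 86.3 and 78.3 CPM with TSA and 26.3, 11 and 13.1 CPM with GSK-343 (log2 change 2.29 ± 0.44, adjusted p = 0.0139), and the secreted guidance cue Slit2 at 17.6 and 49.7 CPM with TSA and 6.42, 3.85 and 3.87 CPM with GSK-343 (log2 change 2.83 ± 0.59, adjusted p = 0.0178). Each of these had both TSA libraries above the GSK-343 libraries. With the GC and length trend removed, 3 cadherin-family genes were higher and 3 lower, and 4 and 4 of the guidance genes. When TSA replicate 2 was dropped none of the 7 passed (adjusted p = 0.174 to 0.324); without TSA replicate 1 Ncam1, Epha4 and Cntnap2 did not (adjusted p = 0.0572 to 0.0772), and without GSK-343 replicate 3 Clstn1 did not (adjusted p = 0.0521).

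**Figure D4:**
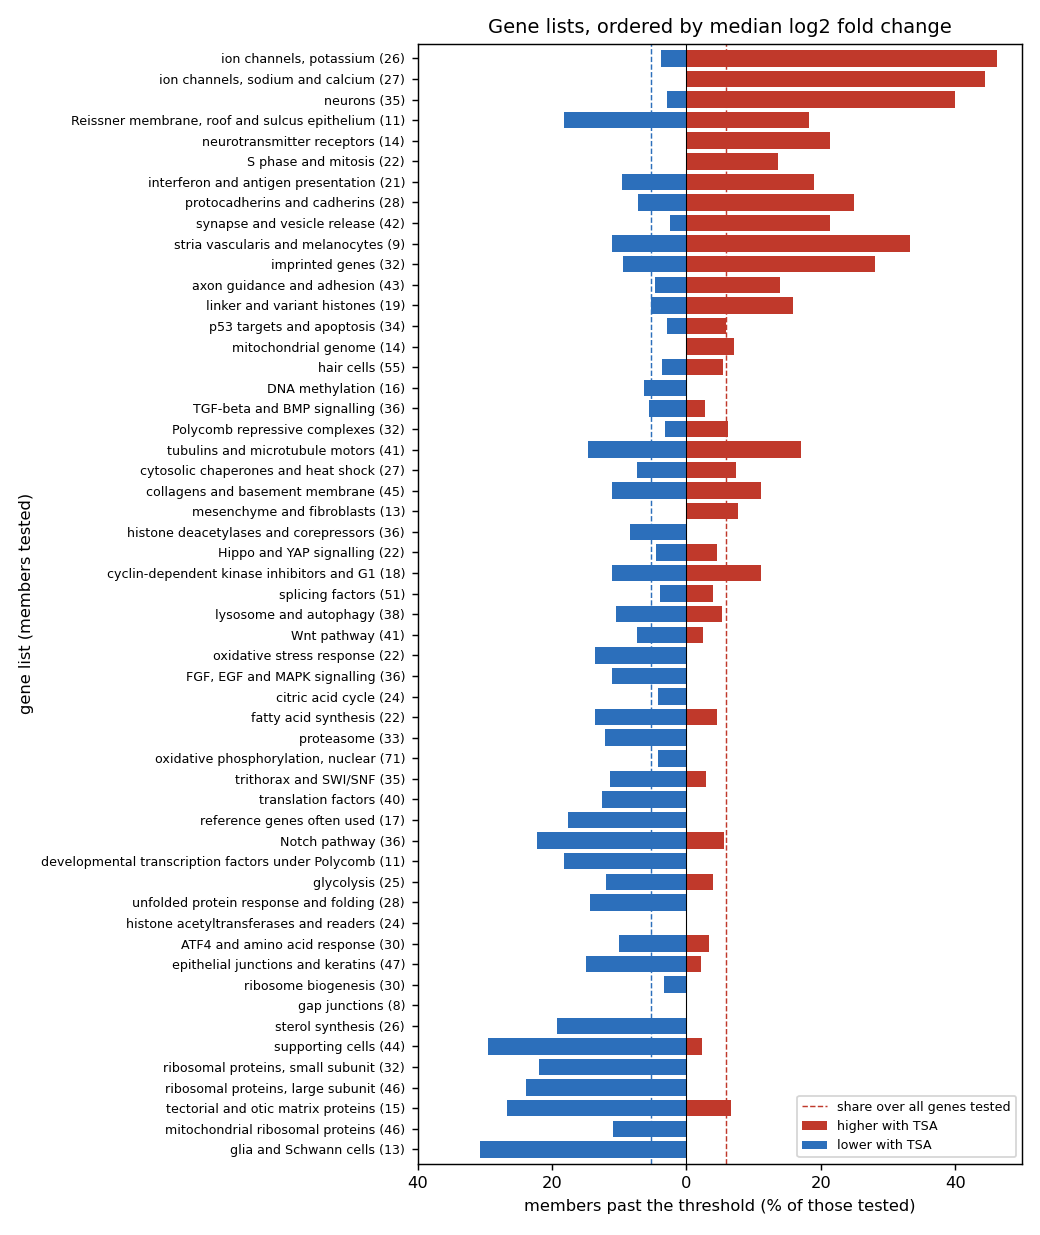
For each gene list with at least 8 tested members (their number in parentheses, ordered by median log2 fold change), bars show the percentage of tested members past the threshold, to the right in red if higher with TSA and to the left in blue if lower. Dashed lines mark the share over all genes tested, 5.95% higher and 5.28% lower; potassium channels (12 of 26 higher) stand at the top and glia (4 of 13 lower) at the bottom.

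Extracellular matrix genes went in both directions. Of the collagen and basement membrane genes tested 22.2% were called, and of the otic matrix genes 33.3%, against 11.2% over all genes tested. Of 45 collagen and basement membrane genes tested, 5 were higher and 5 lower, with a median log2 fold change of −0.02. Nid2, the second nidogen, stood at 44.8 and 98 CPM with TSA and 6.42, 1.92 and 5.16 CPM with GSK-343 (log2 change 3.98 ± 0.56, adjusted p = 0.00601). Lamb1, a laminin beta chain, stood at 27.8 and 41 CPM with TSA and 5.2, 3.85 and 2.84 CPM with GSK-343 (log2 change 3.11 ± 0.53, adjusted p = 0.0101), and Col4a6, a type IV collagen chain, at 26.5 and 30.7 CPM with TSA and 0.306, 2.75 and 0.773 CPM with GSK-343 (log2 change 4.44 ± 0.75, adjusted p = 0.0101). The TSA libraries were above the GSK-343 libraries in all 3, as for Nid1 above. Col2a1, the fibrillar collagen of cartilage and the tectorial membrane, stood at 1883 and 1533 CPM with TSA and 3789, 6489 and 5235 CPM with GSK-343 (log2 change −1.60 ± 0.35, adjusted p = 0.0207), and Col11a2, which copolymerises with it, at 60.7 and 49.3 CPM with TSA and 154, 387 and 296 CPM with GSK-343 (log2 change −2.34 ± 0.44, adjusted p = 0.0137). Col4a4, another type IV chain, was among the 5 lower genes, so the type IV chains were not of 1 direction. Of 15 genes of the tectorial membrane and related otic matrix tested, 4 were lower and 1 higher, with a median of −0.85. Tecta, alpha-tectorin, stood at 1681 and 999.6 CPM with TSA and 4543, 4091 and 4199 CPM with GSK-343 (log2 change −1.67 ± 0.35, adjusted p = 0.0175), and Otoa, otoancorin, which anchors the tectorial membrane to the spiral limbus, at 18.2 and 55.3 CPM with TSA and 136, 151 and 127 CPM with GSK-343 (log2 change −1.91 ± 0.46, adjusted p = 0.028). Emid1, a matrix protein with an EMI domain, stood at 73.5 and 35.3 CPM with TSA and 242, 489 and 412 CPM with GSK-343 (log2 change −2.81 ± 0.47, adjusted p = 0.00912). All 3 were lower in both TSA libraries. In the fit lacking TSA replicate 2 the 8 genes had adjusted p-values of 0.139 to 0.221. Without TSA replicate 1 Col4a6, Col2a1, Col11a2 and Otoa missed the threshold (adjusted p = 0.055 to 0.131), as did Col2a1 and Tecta without GSK-343 replicate 3 (adjusted p = 0.0562 to 0.0706) and Col2a1 without GSK-343 replicate 2 (adjusted p = 0.0547).

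Most supporting cell and glial markers did not pass the test, and those that did were lower with TSA with 1 exception. Still, 31.8% of the supporting cell genes and 30.8% of the glial genes tested passed, against 11.2% over all genes tested. Of 44 supporting cell genes tested, 13 were lower and 1 higher, with a median log2 fold change of −0.81. With total count scaling 8 were lower and 1 higher, and with limma 4 and 0. Hey1, a repressor induced by Notch, stood at 219 and 141 CPM with TSA and 828, 757 and 708 CPM with GSK-343 (log2 change −2.09 ± 0.36, adjusted p = 0.0103). Trh, the precursor of thyrotropin-releasing hormone, had 1 count over the TSA and 131 over the GSK-343 libraries, a ratio of 74.4 (95% counting interval 13.1 to 2961; adjusted p = 0.0119). Other core markers did not pass: Sox2 differed by −0.63 ± 0.32 (adjusted p = 0.21), the transcription factor Sox9 by −0.49 ± 0.33 (adjusted p = 0.35) and the connexin Gjb2 by −0.65 ± 0.31 (adjusted p = 0.184). None of the 8 gap junction genes tested passed in edgeR, where 2 had an unadjusted p under 0.05, and DESeq2's Wald test called 1 lower and limma 0. Of 13 glial genes tested out of 22, 4 were lower and 0 higher, with a median of −1.28 that was −0.14 with the replicate block, −0.17 without the low-count filter and −0.67 without TSA replicate 2. Erbb3, a neuregulin receptor, stood at 166 and 159 CPM with TSA and 659, 390 and 571 CPM with GSK-343 (log2 change −1.73 ± 0.36, adjusted p = 0.0178). The calcium-binding protein S100b stood at 45.1 and 8.33 CPM with TSA and 124, 211 and 191 CPM with GSK-343 (log2 change −2.71 ± 0.61, adjusted p = 0.0221). The TSA libraries lay below the GSK-343 libraries in both genes, with S100b lowest in TSA replicate 2. Supporting cells express several of these glial genes as well, and Fabp7 (a fatty acid binding protein, log2 change −2.21 ± 0.56, adjusted p = 0.0315) is in both lists. Foxd3, a neural crest factor and a marker of the glial lineage, was low in all 5 libraries, at 0.959 CPM or less. The part of glia in these results was not tested. Without TSA replicate 2 none of the named genes passed (adjusted p = 0.162 to 0.305), and without TSA replicate 1 Trh, Erbb3 and Fabp7 did not (adjusted p = 0.0558 to 0.0923).

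Hair cell genes did not move as a group, and the 2 TSA libraries lay on opposite sides of the GSK-343 libraries. The mean log2 CPM of the tested genes was 5.91 and 3.79 with TSA and 4.80, 4.06 and 5.33 with GSK-343. Of 55 tested, 3 were higher and 2 lower, near the background, with a median log2 fold change of 0.21. Atoh1, the bHLH factor at the start of the hair cell programme, stood at 51.8 and 14 CPM with TSA and 37.9, 43.7 and 43.8 CPM with GSK-343 (log2 change −0.34 ± 0.51, adjusted p = 0.686), so TSA replicate 1 was the highest and TSA replicate 2 the lowest of the 5. Pou4f3, a hair cell transcription factor, stood at 508 and 83.3 CPM with TSA and 229, 83.0 and 333 CPM with GSK-343. Otof, a calcium sensor of hair cell synapses, stood at 289 and 30.0 CPM with TSA and 47.4, 31.0 and 143 CPM with GSK-343. In both the groups overlapped. Without TSA replicate 1 the median of the list was −1.27, and without TSA replicate 2 it was 0.97; the log2 change of Atoh1 was −1.60 in the first case and 0.35 (adjusted p = 0.768) in the second. Adgrv1, an adhesion receptor that links neighbouring stereocilia, stood at 125 and 103 CPM with TSA and 26, 27.2 and 18 CPM with GSK-343 (log2 change 2.26 ± 0.36, adjusted p = 0.00779). Gpsm2, which orients the hair bundle, stood at 208 and 183 CPM with TSA and 64.8, 73.6 and 62.4 CPM with GSK-343 (log2 change 1.54 ± 0.31, adjusted p = 0.0167). Ush1c, a bundle scaffold protein, stood at 80.6 and 27 CPM with TSA and 181, 277 and 196 CPM with GSK-343 (log2 change −2.02 ± 0.48, adjusted p = 0.0262). These 3 separated the compounds, Adgrv1 and Gpsm2 higher with TSA and Ush1c lower. None passed without TSA replicate 2 (adjusted p = 0.139 to 0.275), and Adgrv1 and Gpsm2 did not without TSA replicate 1 (adjusted p = 0.0558 to 0.0853).

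Genes of the enzymes that the compounds inhibit did not pass edgeR's test, which called no gene with less than a 2-fold difference. Over all genes tested 11.2% were called. The share was 8.33% for deacetylases and corepressors and 9.38% for Polycomb genes, both below that, and 14.3% for trithorax and SWI/SNF genes. Hdac1 stood at 87.6 and 102 CPM with TSA and 37, 86.5 and 62.9 CPM with GSK-343 (log2 change 0.61 ± 0.39, adjusted p = 0.326), Hdac2 at 61.7 and 75.3 CPM with TSA and 47.4, 43.1 and 43.6 CPM with GSK-343 (log2 change 0.62 ± 0.34, adjusted p = 0.248) and Hdac3 at 140 and 138 CPM with TSA and 164, 202 and 174 CPM with GSK-343 (log2 change −0.37 ± 0.32, adjusted p = 0.457). Of 36 deacetylase and corepressor genes tested, 3 were lower and 0 higher, with a median log2 fold change of −0.10, and 0.11 when scaled by total count. The lower ones included Chd3, a remodeller of the NuRD complex, at 14.4 and 9 CPM with TSA and 54.4, 53 and 38.4 CPM with GSK-343 (log2 change −2.05 ± 0.45, adjusted p = 0.0207). Ezh2 itself stood at 42.2 and 72 CPM with TSA and 16.2, 25.8 and 25.5 CPM with GSK-343 (log2 change 1.34 ± 0.42, adjusted p = 0.0598), with both TSA libraries above the GSK-343 libraries but short of the threshold; DESeq2's Wald test called it higher (adjusted p = 0.0281), and limma did not (adjusted p = 0.0642). Its partners Eed (log2 change 0.39 ± 0.37, adjusted p = 0.509) and Suz12 (log2 change 1.11 ± 0.49, adjusted p = 0.152) also missed it. Of 32 Polycomb genes tested, 2 were higher and 1 lower, with a median of 0.06. Bcor, a subunit of a variant complex 1, stood at 81.8 and 81 CPM with TSA and 40.4, 32.7 and 25.8 CPM with GSK-343 (log2 change 1.31 ± 0.36, adjusted p = 0.0406). Rybp, another such subunit, stood at 132 and 257 CPM with TSA and 76.1, 62.6 and 86.6 CPM with GSK-343 (log2 change 1.37 ± 0.37, adjusted p = 0.0374), and Ring1, a catalytic subunit of complex 1, at 18.2 and 6.67 CPM with TSA and 47.7, 72.5 and 37.1 CPM with GSK-343 (log2 change −2.07 ± 0.53, adjusted p = 0.0341). Of 35 trithorax and SWI/SNF genes 4 were lower and 1 higher, with a median of −0.47. Setd1a, a methyltransferase for lysine 4 of histone H3, stood at 86 and 52.7 CPM with TSA and 215, 210 and 235 CPM with GSK-343 (log2 change −1.67 ± 0.36, adjusted p = 0.0197), and Kmt2b, another, at 28.8 and 13 CPM with TSA and 77.3, 69.8 and 57.5 CPM with GSK-343 (log2 change −1.70 ± 0.44, adjusted p = 0.0343). Both were lower in each TSA library. None of 24 acetyltransferase and reader genes passed in edgeR (median −0.58), where 5 had an unadjusted p under 0.05, and DESeq2's Wald test called 4 lower and limma 0. With TSA replicate 2 left out (adjusted p = 0.255 to 0.416) and without TSA replicate 1 (adjusted p = 0.0601 to 0.153) none of the named calls was made, and Rybp missed the threshold with the GC and length trend removed (adjusted p = 0.167). Without GSK-343 replicate 2 Bcor, Rybp, Ring1 and Kmt2b missed it (adjusted p = 0.0677 to 0.0936), and without GSK-343 replicate 3 Bcor, Rybp and Kmt2b (adjusted p = 0.0563 to 0.126).

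Targets that Polycomb silences in many tissues were mostly too low to test. None of the 39 Hox genes passed the filter, and the highest count of a Hox gene in any of the 5 libraries was 8, for Hoxd8. Of 79 developmental transcription factors often held by Polycomb, 11 were tested, of which 2 were lower with TSA and 0 higher. The share called, 18.2% against 11.2% over all genes tested, rests on few members. The filter left out most of both lists. Above 0 were 39 and 39 of the 79 genes with TSA and 15, 17 and 23 with GSK-343, and 3 and 8 of the Hox genes with TSA and 0, 0 and 1 with GSK-343, in libraries where more genes were detected with TSA in general. Without the filter 0 of the 79 were higher and 1 lower. Their median log2 fold change was then 2.18, over only those members with at least 1 count in the 5 libraries. This compares with 0.152 over all genes in that fit and with −0.52 over the 11 tested. The 2 lower genes were Irx3, a homeobox factor, at 11.5 and 8 CPM with TSA and 32.7, 76.1 and 71.2 CPM with GSK-343 (log2 change −2.62 ± 0.51, adjusted p = 0.0144), and Six2, a homeobox factor of progenitors, at 11.5 and 9 CPM with TSA and 19, 122 and 75 CPM with GSK-343 (log2 change −2.81 ± 0.69, adjusted p = 0.029). Six2 in GSK-343 replicate 1 lay far closer to the TSA libraries than in replicates 2 and 3. Both missed the threshold without TSA replicate 1 (adjusted p = 0.0678 to 0.127) and without TSA replicate 2 (adjusted p = 0.217 to 0.301), and Six2 without GSK-343 replicate 2 (adjusted p = 0.0622).

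Histone genes had 3 members higher and 1 lower of 19 tested, with a median log2 fold change of 0.33. Hist1h2be, a clustered H2B gene, stood at 50.5 and 59.7 CPM with TSA and 0.917, 2.75 and 3.87 CPM with GSK-343 (log2 change 4.42 ± 0.57, adjusted p = 0.00555). The linker histone Hist1h1c stood at 158 and 159 CPM with TSA and 22.6, 61.5 and 54.4 CPM with GSK-343 (log2 change 1.78 ± 0.42, adjusted p = 0.0248), and Hist1h1d, another, at 10.6 and 10 CPM with TSA and 0, 0.549 and 1.55 CPM with GSK-343 (log2 change 3.77 ± 0.98, adjusted p = 0.0345). All 3 were higher in both TSA libraries; clustered histone genes are near-identical, so reads may be shared. H1fx, a linker histone outside the clusters, was lower, at 7.03 and 10.7 CPM with TSA and 48.3, 40.9 and 30.4 CPM with GSK-343 (log2 change −2.17 ± 0.48, adjusted p = 0.0216). H1f0, a linker histone that deacetylase inhibitors are known to raise, stood at 348 and 747 CPM with TSA and 328, 205 and 202 CPM with GSK-343 (log2 change 1.16 ± 0.39, adjusted p = 0.0783), above the GSK-343 range in both TSA libraries but not past the threshold. When TSA replicate 2 was dropped none of the 4 called genes passed (adjusted p = 0.129 to 0.295) and without TSA replicate 1 only Hist1h2be did (adjusted p = 0.0381); Hist1h1d was lost without GSK-343 replicate 2 (adjusted p = 0.0516). Hist1h1d and H1fx also missed with the GC and length trend removed (adjusted p = 0.1 to 0.212).

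Cell cycle genes moved singly. Called were 13.6% of the tested genes of S phase and mitosis and 8.82% of those of p53 targets and apoptosis. Over all genes tested it was 11.2%. Of 22 genes of S phase and mitosis tested out of 41, 3 were higher with TSA and 0 lower, with a median log2 fold change of 1.15. The median was 0.22 without TSA replicate 2, 1.75 without TSA replicate 1 and 0.03 over genes with at least 50 counts in 2 libraries. The 3 higher genes were Ccne1, described above, Rrm2 and Cdt1. Rrm2, a ribonucleotide reductase subunit, had 33 counts over the TSA libraries against 1 over the GSK-343 libraries (ratio 58.1, 95% counting interval 9.73 to 2364). Cdt1, a replication licensing factor, had 34 and 2 (ratio 29.9, 7.67 to 257). Both rest on few counts. Rb1, the retinoblastoma protein that restrains entry into S phase, stood at 97.2 and 199 CPM with TSA and 36.4, 32.4 and 20.1 CPM with GSK-343 (log2 change 2.32 ± 0.41, adjusted p = 0.0114). Ccnd2, a D-type cyclin, stood at 37.7 and 15.7 CPM with TSA and 7.64, 5.22 and 4.9 CPM with GSK-343 (log2 change 2.17 ± 0.57, adjusted p = 0.0356). Cdk4, the kinase of D-type cyclins, stood at 170 and 75.7 CPM with TSA and 505, 454 and 498 CPM with GSK-343 (log2 change −1.98 ± 0.41, adjusted p = 0.0172), and Ccnd3 at 111 and 82 CPM with TSA and 201, 256 and 255 CPM with GSK-343 (log2 change −1.30 ± 0.34, adjusted p = 0.0356). Rb1 and Ccnd2 were higher and Cdk4 and Ccnd3 lower with TSA, with no overlap. Cdkn1a, the kinase inhibitor p21 that deacetylase inhibitors raise in many cells, stood at 39.3 and 39.7 CPM with TSA and 44.3, 105 and 133 CPM with GSK-343 (log2 change −1.26 ± 0.46, adjusted p = 0.0973), below the GSK-343 libraries without passing the test. Trp53, the gene of p53, stood at 16.6 and 10.7 CPM with TSA and 75.2, 106 and 87.9 CPM with GSK-343 (log2 change −2.71 ± 0.41, adjusted p = 0.00749), lower in both TSA libraries. Of 34 genes of p53 targets and apoptosis tested, Trp53 was the 1 lower, and 2 were higher (median 0.25). In the fit lacking TSA replicate 2 none of these calls was made (adjusted p = 0.162 to 0.345; Rrm2 was too low to test), and without TSA replicate 1 Rrm2, Cdt1, Ccnd2 and Ccnd3 missed the threshold (adjusted p = 0.101 to 0.315). Ccnd2 and Ccnd3 also missed it without GSK-343 replicate 2 (adjusted p = 0.0735 to 0.0891) or 3 (adjusted p = 0.0828 to 0.106).

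Signalling genes that passed were mostly lower with TSA, but only the Notch list held more called genes than the background. Of its tested members 27.8% passed, against 11.2% over all genes tested. The shares were 9.76% for Wnt, 11.1% for FGF, EGF and MAPK, and 8.33% for TGF-beta and BMP. Of 36 Notch genes tested, 8 were lower and 2 higher with TSA, with a median log2 fold change of −0.51; with DESeq2's size factors 3 were lower, with total count scaling 2, and with the GC and length trend removed 5. Without GSK-343 replicate 2 there was 1 lower, without GSK-343 replicate 3 there were 2, and the median was −0.05 without TSA replicate 2. Ncstn, a subunit of the protease that cleaves Notch, stood at 41.2 and 39.7 CPM with TSA and 102, 139 and 123 CPM with GSK-343 (log2 change −1.58 ± 0.35, adjusted p = 0.0205). Dner, a Notch ligand of neural tissue, stood at 43.2 and 34.3 CPM with TSA and 5.5, 3.02 and 6.7 CPM with GSK-343 (log2 change 2.92 ± 0.51, adjusted p = 0.0109), and Dtx1, a ubiquitin ligase acting on Notch, at 25.3 and 28.3 CPM with TSA and 1.22, 5.77 and 1.8 CPM with GSK-343 (log2 change 3.17 ± 0.68, adjusted p = 0.0197). Ncstn thus lay lower and Dner and Dtx1 higher with TSA, without overlap. Of 41 Wnt genes 3 were lower and 1 higher, with a median of −0.26. Wnt7a, a ligand, stood at 286 and 125 CPM with TSA and 1634, 1170 and 1581 CPM with GSK-343 (log2 change −2.83 ± 0.44, adjusted p = 0.00754). Its receptor family member Fzd9 stood at 116 and 51 CPM with TSA and 254, 406 and 340 CPM with GSK-343 (log2 change −1.99 ± 0.43, adjusted p = 0.0201), and the repressor Tcf7l1 at 36.4 and 24 CPM with TSA and 139, 305 and 221 CPM with GSK-343 (log2 change −2.87 ± 0.45, adjusted p = 0.00779). The secreted antagonist Wif1 went the other way, at 9.27 and 10.7 CPM with TSA and 1.53, 0.275 and 0.516 CPM with GSK-343 (log2 change 3.66 ± 0.87, adjusted p = 0.0263). Of 36 FGF, EGF and MAPK genes 4 were lower and 0 higher (median −0.31), among them Spry1, a feedback inhibitor of receptor tyrosine kinases, at 21.4 and 6.33 CPM with TSA and 65.7, 91.5 and 40.5 CPM with GSK-343 (log2 change −2.24 ± 0.57, adjusted p = 0.0328). Of 36 TGF-beta and BMP genes 1 was higher and 2 lower (median 0.08): the ligand Bmp2 stood at 49.2 and 39.3 CPM with TSA and 11.6, 17 and 12.6 CPM with GSK-343 (log2 change 1.68 ± 0.42, adjusted p = 0.0315) and the ligand Tgfb2 at 851 and 666 CPM with TSA and 1817, 1723 and 1586 CPM with GSK-343 (log2 change −1.17 ± 0.32, adjusted p = 0.0398). Ligands of the same superfamily therefore lay on opposite sides. Without TSA replicate 2 none of these genes passed (adjusted p = 0.156 to 0.319); without TSA replicate 1 Wnt7a, Fzd9 and Tcf7l1 did, and the others did not (adjusted p = 0.055 to 0.148). Without GSK-343 replicate 2 Ncstn, Spry1 and Tgfb2 missed the threshold (adjusted p = 0.0549 to 0.101), and without GSK-343 replicate 3 Ncstn, Wif1, Bmp2 and Tgfb2 (adjusted p = 0.0507 to 0.123).

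Genes of the translation machinery were lower with TSA wherever they passed. Over all genes tested 5.28% were lower. The lower share was 23.9% for the large and 21.9% for the small ribosomal subunit, and 12.5% for translation factors. For mitochondrial ribosomal proteins it was 10.9%, and for oxidative phosphorylation 4.23%, below the share over all genes. Of 46 genes of the large ribosomal subunit, 11 were lower and 0 higher, with a median log2 fold change of −0.84, and of 32 of the small subunit 7 and 0, with a median of −0.81. The medians held their sign with total count scaling (−0.65 and −0.63), without TSA replicate 2 (−1.07 and −1.01) and with the GC and length trend removed (−0.58 and −0.46). Rplp0, of the ribosomal stalk, stood at 148 and 165 CPM with TSA and 372, 748 and 665 CPM with GSK-343 (log2 change −1.92 ± 0.39, adjusted p = 0.0171). Rps15 stood at 124 and 131 CPM with TSA and 393, 628 and 698 CPM with GSK-343 (log2 change −2.17 ± 0.38, adjusted p = 0.0107), and Fau, which encodes a fusion of a ubiquitin-like protein with a ribosomal protein, at 46.4 and 38 CPM with TSA and 134, 285 and 271 CPM with GSK-343 (log2 change −2.45 ± 0.43, adjusted p = 0.0107). GSK-343 replicate 1 was the lowest of its group in all 3 and still lay above both TSA libraries. Ribosomal protein genes have many processed copies, so their reads may be shared. Of 40 translation factors 5 were lower and 0 higher (median −0.47). Eif4a1, an initiation helicase, stood at 168 and 144 CPM with TSA and 353, 504 and 556 CPM with GSK-343 (log2 change −1.59 ± 0.35, adjusted p = 0.0215). Of 46 mitochondrial ribosomal proteins 5 were lower and 0 higher (median −0.86), and of 71 nuclear genes of oxidative phosphorylation 3 and 0 (median −0.47, and −0.04 with the GC and length trend removed). Ndufs3, a subunit of complex I, stood at 20.5 and 13.3 CPM with TSA and 60.5, 56.6 and 84.6 CPM with GSK-343 (log2 change −1.99 ± 0.42, adjusted p = 0.0189). With TSA replicate 2 left out (adjusted p = 0.175 to 0.254) or TSA replicate 1 (adjusted p = 0.0643 to 0.0938) none of the named genes passed, and Eif4a1 and Ndufs3 did not without GSK-343 replicate 3 (adjusted p = 0.0549 to 0.0662).

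Metabolic and stress genes among the called were mostly lower with TSA. Of 25 glycolysis genes, 3 were lower and 1 higher (median log2 fold change −0.56). Aldoc, the aldolase of brain, stood at 37.1 and 38.7 CPM with TSA and 193, 290 and 204 CPM with GSK-343 (log2 change −2.59 ± 0.37, adjusted p = 0.00641), and Ldha, lactate dehydrogenase A, at 58.8 and 45.7 CPM with TSA and 153, 247 and 139 CPM with GSK-343 (log2 change −1.78 ± 0.39, adjusted p = 0.0202). Gapdh stood at 476 and 359 CPM with TSA and 726, 1268 and 888 CPM with GSK-343 (log2 change −1.20 ± 0.36, adjusted p = 0.0538), lower in both TSA libraries without passing. Of 26 sterol synthesis genes 5 were lower and 0 higher (median −0.71), and of 22 fatty acid genes 3 and 1 (median −0.35). Srebf2, the transcription factor of sterol synthesis, stood at 139 and 93.7 CPM with TSA and 307, 322 and 436 CPM with GSK-343 (log2 change −1.61 ± 0.36, adjusted p = 0.022), and Fasn, fatty acid synthase, at 100 and 66 CPM with TSA and 216, 338 and 455 CPM with GSK-343 (log2 change −2.01 ± 0.42, adjusted p = 0.0176). In both the ranges were apart. Shmt2, a mitochondrial enzyme of serine metabolism and 1 of 3 lower genes of 30 in the amino acid response list, stood at 28.8 and 23.3 CPM with TSA and 170, 134 and 134 CPM with GSK-343 (log2 change −2.48 ± 0.36, adjusted p = 0.0069). Of 27 cytosolic chaperones 2 were higher and 2 lower (median 0.02). Hspb8, a small heat shock protein, stood at 20.1 and 18.7 CPM with TSA and 0.917, 2.47 and 2.58 CPM with GSK-343 (log2 change 3.25 ± 0.66, adjusted p = 0.0168), and Hspa4, a co-chaperone of the Hsp110 family, at 184 and 223 CPM with TSA and 87.1, 74.2 and 74.8 CPM with GSK-343 (log2 change 1.37 ± 0.31, adjusted p = 0.0231). Hsp90ab1, the constitutive Hsp90, stood at 1268 and 1023 CPM with TSA and 2838, 3546 and 4030 CPM with GSK-343 (log2 change −1.60 ± 0.33, adjusted p = 0.0178), and Fkbp4, its co-chaperone, at 147 and 64.7 CPM with TSA and 299, 470 and 480 CPM with GSK-343 (log2 change −1.97 ± 0.44, adjusted p = 0.0214). Chaperones of the same cell compartment were thus found on both sides. When TSA replicate 2 was dropped none of the called genes passed (adjusted p = 0.162 to 0.277), and without TSA replicate 1 Shmt2 and Fkbp4 did while the others did not (adjusted p = 0.0516 to 0.0921). Without GSK-343 replicate 2 Ldha and Hspa4 missed it (adjusted p = 0.051 to 0.0589), and without GSK-343 replicate 3 Srebf2, Hspa4 and Hsp90ab1 (adjusted p = 0.0684 to 0.0748). Of 17 genes often used as references, 3 were lower and 0 higher (median −0.48), and Actb stood at 906 and 680 CPM with TSA and 1032, 1907 and 1726 CPM with GSK-343 (log2 change −0.97 ± 0.36, adjusted p = 0.102).

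Imprinted genes went both ways, with 9 higher and 3 lower with TSA of 32 tested (median log2 fold change 0.63, and 0.02 with the GC and length trend removed, with the same counts). The share called was 37.5%, and 28.6% for the interferon and antigen presentation genes below, against 11.2% over all genes tested. Beside Rian and Meg3, Peg3, a zinc finger gene expressed from the paternal copy, stood at 116 and 104 CPM with TSA and 27.8, 23.4 and 31.5 CPM with GSK-343 (log2 change 2.0 ± 0.34, adjusted p = 0.0103). Slc22a3, an organic cation transporter, stood at 36.8 and 22.3 CPM with TSA and 169, 153 and 171 CPM with GSK-343 (log2 change −2.47 ± 0.38, adjusted p = 0.00749). The first was higher and the second lower in both TSA libraries. Of 21 interferon and antigen presentation genes, 4 were higher and 2 lower (median 0.97). H2-D1, a class I heavy chain of a family with near-identical members, stood at 58.5 and 65.3 CPM with TSA and 1.53, 7.97 and 5.41 CPM with GSK-343 (log2 change 3.62 ± 0.57, adjusted p = 0.00779). Stat2, a transcription factor of interferon signalling, stood at 75.1 and 68.3 CPM with TSA and 17.7, 26.9 and 8.77 CPM with GSK-343 (log2 change 2.01 ± 0.47, adjusted p = 0.0242), and Tapbp, the tapasin of the peptide-loading complex, at 67.5 and 50.7 CPM with TSA and 171, 258 and 214 CPM with GSK-343 (log2 change −1.86 ± 0.36, adjusted p = 0.0148). In the fit lacking TSA replicate 2 none of the 5 passed (adjusted p = 0.159 to 0.228), and without TSA replicate 1 Peg3, Stat2 and Tapbp did not (adjusted p = 0.0627 to 0.112).

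The levels in DMSO, normalised with all 7 libraries, are given side by side for 6 genes and not tested, since those libraries differ in read layout. Stmn2 stood at 13.9 and 13.3 CPM in DMSO, 108 and 98.8 CPM with TSA and 1.98, 3.16 and 1.85 CPM with GSK-343. Rian stood at 19.3 and 28.2 CPM in DMSO, 83.2 and 111 CPM with TSA and 1.13, 5.11 and 1.16 CPM with GSK-343. Ccne1 stood at 0.449 and 2.09 CPM in DMSO, 70.3 and 79.8 CPM with TSA and 10.8, 9.98 and 13.4 CPM with GSK-343. DMSO thus lay between the compounds for Stmn2 and Rian and below both for Ccne1. Nr4a3 stood at 332 and 326 CPM in DMSO, 54.9 and 41.1 CPM with TSA and 622, 352 and 583 CPM with GSK-343. Efhd1 stood at 985 and 903 CPM in DMSO, 171 and 93.3 CPM with TSA and 1114, 1814 and 1910 CPM with GSK-343. Cldn7 stood at 13.7 and 19.8 CPM in DMSO, 85.1 and 78.9 CPM with TSA and 555, 447 and 755 CPM with GSK-343. For Nr4a3 DMSO lay between the compounds, for Efhd1 just below the GSK-343 libraries, and for Cldn7 below both.

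**Figure D5:**
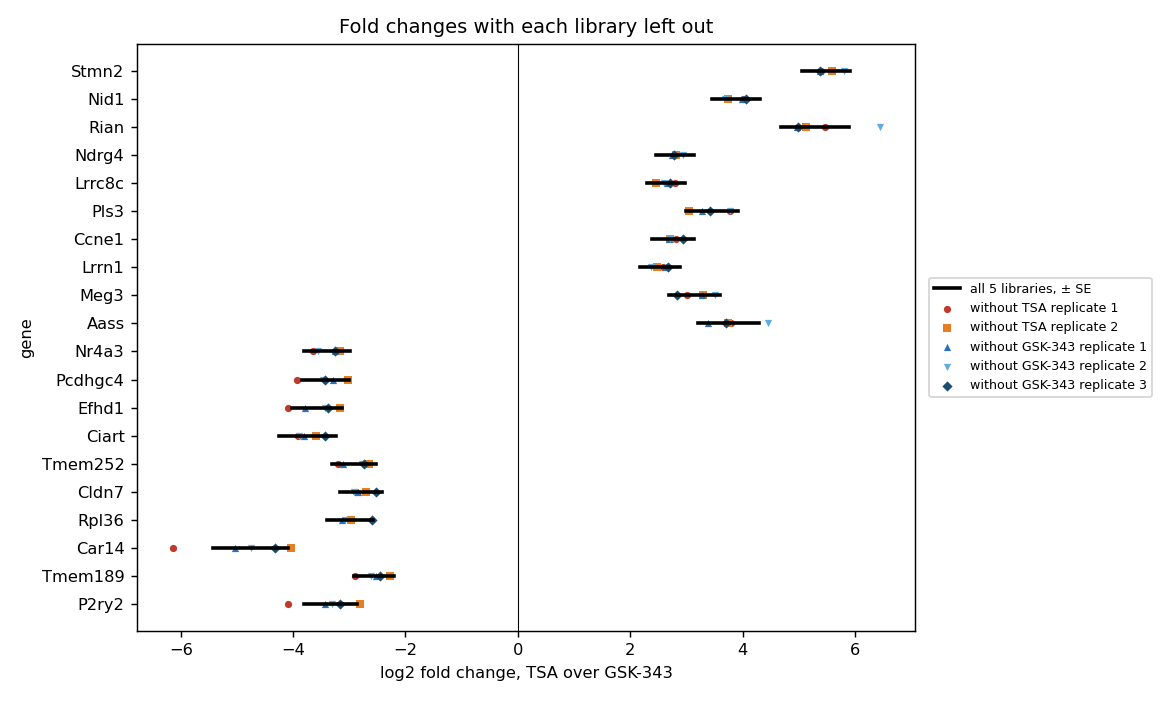
Log2 fold changes of TSA over GSK-343 (horizontal axis) for the 10 well expressed genes with the smallest adjusted p in each direction, with a black bar for ± 1 SE with all 5 libraries and a symbol for each fit that leaves 1 library out. The genes were chosen so that the libraries of the compounds do not overlap. Car14 ranges from −6.15 to −4.03 and Stmn2 from 5.37 to 5.82.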

How the data were processed

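RNA from GFP-sorted supporting cells was sequenced in 7 libraries, of which the 2 of TSA and the 3 of GSK-343 were compared. The submitters' processing notes name STAR, RSEM, DESeq2 and the build mm10; versions and the annotation release are not given in the sources used here. The authors deposited, per the file headers, 1 RSEM table per library with expected counts, in which an ambiguous read is split between genes, and with TPM values, which correct for effective length and library size. Each table holds 48709 genes, of which 48349 matched GENCODE M21 without the version suffix. Promoters came from RefSeq.

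Expected counts were rounded and tested with edgeR 4.0.16 in R 4.3.3 (TMM, filterByExpr, quasi-likelihood F test, 3 residual degrees of freedom, threshold 0.05). The SE of a log2 fold change was taken as its size divided by √F. TMM factors were 1.16 and 1.02 for TSA and 0.966, 0.957 and 0.916 for GSK-343, and the biological coefficient of variation was 0.405. In simulated data with 13235 genes, 67, 67 and 66 genes with an average log2 CPM above 3 were changed 2-, 4- and 8-fold. The test recovered 2.99%, 50.7% and 86.4% of them, with 10 false calls. Far fewer genes were changed than the 1487 called in the data. The cut on the adjusted p depends on that number, so these shares do not give the power in the data. Replicates of a group were checked for duplicates, and their counts differed by far more than sampling noise (chi-square per degree of freedom 15.4 to 45.3). Alternatives used DESeq2 1.42.0, limma 3.58.1 on log2(TPM + 1), other scalings and filters, a spline with 5 degrees of freedom on GC content and length, and each library left out. The models of all 7 libraries without a TSA replicate were added after seeing the data.

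Genes named are the 10 with the smallest adjusted p in each direction whose mean log2 CPM reaches 5, levels that do not overlap and a nuclear locus, up to 4 members of each list by smallest adjusted p, and fixed genes (deacetylases, PRC2 subunits, Cdkn1a, H1f0, Sox2, Atoh1, Gapdh, Actb); markers of other cell types, the further tubulins and the single chain Col4a4 were added after their values were seen. Some genes that this rule names are not reported here. The comparison and the lists were chosen with earlier results of these data known. Python 3.11.15, pandas 2.3.3, numpy 2.4.6, scipy 1.17.1 and matplotlib 3.10.9 made the tables and figures.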

Additional observations from a re-analysis of the deposited data

How the results depend on the processing

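The 1487 genes called (788 higher and 699 lower with TSA) ranged from 1 to 2499 when 1 library was left out, the higher ones from 1 to 1218 and the lower ones from 0 to 1281. Without TSA replicate 2 only Stmn2 passed by edgeR's quasi-likelihood test, and 841 lower genes had an unadjusted p under 0.05. Without TSA replicate 1 there were 218 calls, without GSK-343 replicate 2 there were 991 and without GSK-343 replicate 3 there were 833; a group with 1 library is assumed to vary like the other. With all 7 libraries in the model there were 1425 calls, 159 without TSA replicate 2 (89 higher and 70 lower) and 1071 without TSA replicate 1 (442 higher). No low-count filter gave 708 (355 and 353), limma on TPM 587 (458 and 129) and a threshold of 0.01 gave 123 (82 and 41). DESeq2's Wald test gave 2223, with 1145 lower. With total count scaling 916 genes were higher and 318 lower, so that 74.2% of calls were higher in place of 53%, and the median log2 fold change over all genes was 0.185. Limma's median was 0.34 and its share 78.0%, and removal of the GC and length trend gave a median of −0.16. The replicate block gave 881 calls (463 and 418), and 939 (400 and 539) with the GC and length trend removed as well. Deviations of same-numbered libraries correlated at −0.107 and −0.024 over genes in only 2 pairs, and the labels give no shared origin, so the numbers were not taken to pair the libraries. Among named genes only Atoh1, which was never called, changed sign (−1.60 without TSA replicate 1, 0.35 without TSA replicate 2, and 0.25 with all 7 libraries and without that replicate). Of the 117 named genes that were called, 55 lost their call with limma, 16 with the block, 9 with the trend removed and 8 with total count scaling. Of 67 genes changed 2-fold in simulated data, 2.99% were recovered. Far fewer genes were changed there than were called in the data, so this share does not carry over to the data.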

Other observations

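Further gene groups were measured in the same test. Over all genes tested 11.2% were called. The share was 17.0% for epithelial junctions and keratins, 15.8% for lysosome and autophagy, and 7.84%, below the share over all genes, for splicing factors. Of 47 genes of epithelial junctions and keratins tested, 7 were lower and 1 higher with TSA than with GSK-343, with a median log2 fold change of −0.64. Pkp3, a desmosomal plakophilin, stood at 14.4 and 9.67 CPM with TSA and 48.6, 55.2 and 44.3 CPM with GSK-343 (log2 change −2.03 ± 0.43, adjusted p = 0.0191). Of 38 lysosome and autophagy genes, 4 were lower and 2 higher (median −0.20). The protease Ctsl, cathepsin L, was among the higher ones, at 372 and 602 CPM with TSA and 141, 174 and 167 CPM with GSK-343 (log2 change 1.60 ± 0.33, adjusted p = 0.018). The autophagy adaptor Sqstm1 was lower, at 140 and 98.3 CPM with TSA and 375, 382 and 434 CPM with GSK-343 (log2 change −1.73 ± 0.34, adjusted p = 0.0159). The groups did not overlap in any of these 3 genes. Of 51 splicing factors 2 were higher and 2 lower (median −0.17). Nova2, a splicing regulator of neurons, stood at 34.8 and 28 CPM with TSA and 3.36, 8.52 and 5.67 CPM with GSK-343 (log2 change 2.41 ± 0.54, adjusted p = 0.0217), and U2af1, which recognises the 3′ splice site, at 14.7 and 14.3 CPM with TSA and 53.8, 72.5 and 75 CPM with GSK-343 (log2 change −2.21 ± 0.40, adjusted p = 0.0123). Without TSA replicate 2 the 5 genes named here did not pass (adjusted p = 0.187 to 0.239), and without TSA replicate 1 Ctsl did while the others did not (adjusted p = 0.0614 to 0.113).

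Markers of other cochlear epithelia were called in both directions. Of 9 genes of the stria vascularis tested out of 15, 3 were higher and 1 lower (median 0.68, and −0.03 after removal of the GC and length trend), among them Lrp2, an endocytic receptor, at 33.6 and 31.3 CPM with TSA and 3.97, 3.02 and 3.61 CPM with GSK-343 (log2 change 3.19 ± 0.51, adjusted p = 0.00813; without TSA replicate 1 0.055 and without TSA replicate 2 0.156). The melanocyte gene Tyr was at 0 in all 5 libraries, and Otx2, a marker of the cochlear roof, was at 0 as well. Other members of both lists were expressed. The 15 stria and melanocyte genes summed to 306 and 383 CPM with TSA and 320, 571 and 597 CPM with GSK-343. The 17 genes of Reissner's membrane, roof and sulcus summed to 2559 and 2200 CPM with TSA and 3687, 3020 and 2969 CPM with GSK-343. Of 11 genes of Reissner's membrane, roof and sulcus epithelium tested out of 17, 2 were higher and 2 lower (median 1.68). The shares of both lists past the threshold, 44.4% and 36.4%, compare with 11.2% over all genes and rest on few members, and with either TSA replicate left out none of them passed in edgeR. Of 13 mesenchymal genes tested out of 22, 1 was higher and 0 lower (median −0.05), a share of 7.69%, below the 11.2% over all genes. Col1a1, a collagen of fibroblasts, stood at 3.84 and 3.0 CPM with TSA and 1.22, 1.37 and 1.55 CPM with GSK-343.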
